A study of Homo sapiens with 12 samples.

Results

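The comparison described here sets MV-4-11 cells that received crenolanib together with HPA-12 against MV-4-11 cells that received HPA-12 alone, and so asks what crenolanib changed when HPA-12 was already present. It uses 6 of the 12 RNA sequencing libraries of the study, 3 labelled combination and 3 labelled HPA-12, chosen by these labels alone. The other 6 libraries, 3 with crenolanib alone and 3 with DMSO, the solvent, are used only to set the response beside that of cells without HPA-12. MV-4-11 is an established human acute myeloid leukaemia line, which the labels give as AML cells of bone marrow with a WT genotype in all 4 groups. Total RNA was sequenced, and the 3 treated groups were sampled at 48 h. The labels state neither doses nor a time for the DMSO libraries. They number the libraries of a group but do not call them separate cultures, so each p-value is set against a spread between libraries that could be purely technical. Values are FPKM, read fragments per kilobase of gene scaled to the total of the library, and were rescaled between libraries by their median ratio over genes.

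Crenolanib inhibits the receptor tyrosine kinase FLT3, which in haematopoietic precursors passes growth signals to STAT5, to the RAS and MAPK cascade and to PI3K and AKT. MV-4-11 cells depend on a FLT3 allele with an internal tandem duplication and also carry a KMT2A fusion. HPA-12, the (1R,3S) isomer per the labels, inhibits CERT, the protein that carries ceramide from the endoplasmic reticulum to the Golgi for sphingomyelin synthesis. The study's title names GRP78 (the product of HSPA5), ATF6 and CHOP (the product of DDIT3), which belong to the unfolded protein response, the programme by which cells answer misfolded protein in the endoplasmic reticulum.

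The combination libraries were shallower than the HPA-12 libraries, at an estimated 4400000 to 5070000 reads, against 12050000 to 12780000 reads. The 13 mitochondrially encoded genes took 61.7% to 62.6% of their FPKM sum, against 21.1% to 22.1% in the HPA-12 libraries. A mean of 7971 of the 20036 genes in the table was at 0 in a combination library, against 4836 in an HPA-12 library. Each combination library held 9 to 11 genes at 0 that had at least 5 FPKM in both other libraries of the group, against 0 such genes in each HPA-12 library. Across the 10237 genes tested, which are not independent replicates, pairs of combination libraries correlated at 0.900 to 0.903 and pairs of HPA-12 libraries at 0.993 to 0.996. No library stood apart within its own group on these measures, but combination library 2 held more stromal transcripts. The line's own markers were detected in both groups, among them FLT3, CD33, CSF1R, LYZ, SPI1 and PTPRC. Of the markers of other cell types, the platelet gene PF4 and the keratin KRT19 were at 0 in all 6 libraries and EPCAM in the 3 combination libraries, whereas the collagen COL1A1 had 8.70 FPKM in combination library 2 and under 0.2 FPKM in the other 5. COL3A1 at 10.8 FPKM, COL1A2 at 4.29 and LUM at 3.21, further stromal genes, were also highest in combination library 2.

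Differences between the groups reached 49.8% of the genes tested, and the largest differences were increases. Genes tested were those with at least 1 FPKM in 3 or more of the 6 libraries, and differences are given as log2 fold changes of FPKM + 1, combination over HPA-12, with their standard error from limma. At an adjusted p under 0.05 (limma, Benjamini-Hochberg over all genes tested), 5096 of 10237 genes changed. Of these, 2350 genes rose, 23.0% of those tested, and 2746 fell, 26.8%. Rises were larger: 479 genes rose and 112 fell by more than 2 log2 units, and 226 rose and 2 fell by more than 3. The share that passed grew with the level, at 35.6% of genes under 2 FPKM and 91.9% of genes of 100 FPKM or more. The split rests on the rescaling: on the deposited values, 1288 genes rose and 5575 fell, and 18.8% of changed genes rose, against 46.1% after rescaling. With the rescaling computed only over genes of at least 5 FPKM, 56.6% of changed genes rose. Fewer genes passed when 1 HPA-12 library was left out: 1590, 1713 and 1668 fell without HPA-12 library 1, 2 and 3, and 3326 changed in either direction without library 1.

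**Figure D1:**
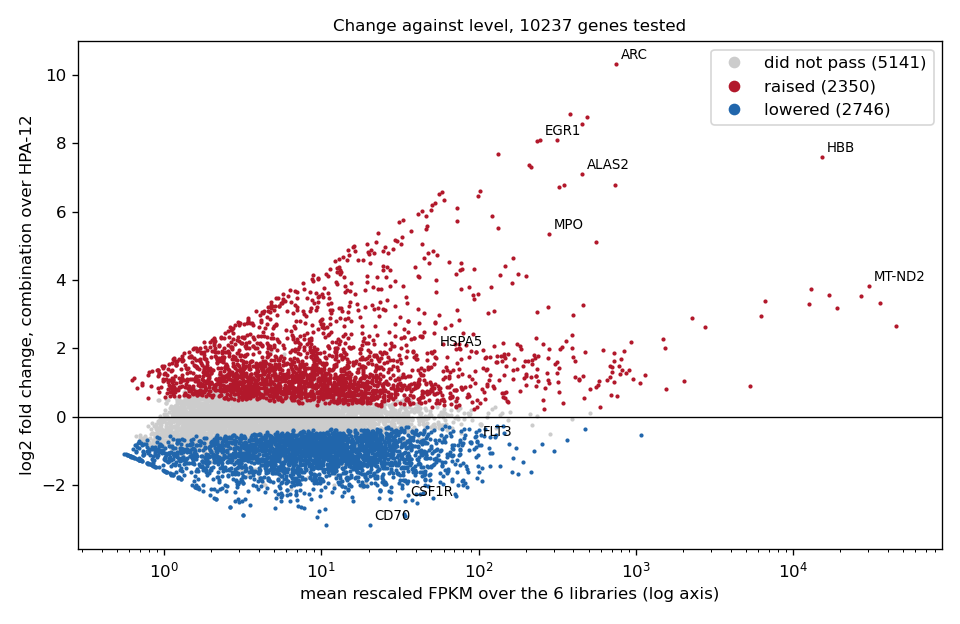
Log2 fold change of FPKM + 1 (y axis, combination over HPA-12) against the mean rescaled FPKM over the 6 libraries (x axis, log scale), 1 point per gene tested. Grey points did not pass, 2350 red points rose and 2746 blue points fell; ARC stands highest at 10.31, HBB is raised at a far higher level, and no lowered gene is beyond -3.18.

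The difference also varied with the GC content and the length of the transcripts. In the fifth of genes with the lowest GC content, 31.0% rose and 8.82% fell, and in the fifth with the highest, 21.5% rose and 33.7% fell. In the fifth with the shortest transcripts, 34.8% rose and 16.2% fell, against 18.3% and 31.1% in the fifth with the longest. When each library was centred within bins of GC content, an alternative chosen after seeing the data, 2498 genes rose and 2172 fell. The part of depth, mitochondrial share and GC content in the results below was not tested beyond these values.

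Red cell genes rose together and included the highest nuclear transcript in the combination libraries. Haemoglobin is a tetramer of alpha-type and beta-type globin chains that carry haem, and erythroid precursors make it under the transcription factors GATA1, TAL1 and KLF1. HBB, the adult beta chain, had 30120, 30440 and 30490 FPKM in the combination libraries, against 164, 151 and 151 FPKM in the HPA-12 libraries (log2 fold change 7.60 ± 0.04, adjusted p = 4.6e-10). Its transcripts made up 12.7% of the non-mitochondrial FPKM in the combination libraries and 0.103% in the HPA-12 libraries. HBA1, an alpha chain, had 206, 193 and 212 FPKM in the combination libraries, against 1.02, 1.14 and 1.1 FPKM in the HPA-12 libraries (6.62 ± 0.10, adjusted p = 3.1e-08). HBM, an alpha-like chain, had 924, 894 and 892 FPKM in the combination libraries, against 1.79, 0.834 and 1.74 FPKM in the HPA-12 libraries (8.55 ± 0.17, adjusted p = 9.5e-08). For all of them the lowest combination library lay far above the highest HPA-12 library. The rule that named HBB and HBM required groups without overlap, and 2863 of all 10237 genes tested were higher without overlap. Since these are bulk RNA values, more cells of a type and more RNA per cell cannot be told apart, here and in the other groups below. The counts of each list below stand beside 23.0% raised and 26.8% lowered over all genes tested. Among all genes tested, 476 reached 1 FPKM in the combination libraries only and 246 in the HPA-12 libraries only. In the 9515 that reached it in both groups, 20.1% were raised and 26.5% lowered. Counts of list members that reached it in both groups stand beside these shares.

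Of the 11 genes of the globin list, 9 were tested and 9 rose, or 5 rose without any 1 combination library, beside 23.0% of all genes tested, with a median log2 fold change of 6.62, beside -0.15 over all genes tested. 4 of the 9 reached 1 FPKM in the combination libraries only, so that they could be tested only because they were high there, and the other 5 were raised too. HBD, the minor adult delta chain, had 691, 601 and 638 FPKM with the combination, against 4.66, 4.79 and 5.94 FPKM with HPA-12 (6.72 ± 0.11, adjusted p = 3.9e-08). HBG1 had 18.9, 15.1 and 18 FPKM with the combination, against 0.0892, 0.173 and 0.125 FPKM with HPA-12, and HBQ1, the theta chain, had 20.1, 109 and 60.7 FPKM with the combination, against 0.248, 0.84 and 0.694 FPKM with HPA-12. HBA2 and HBG2 were listed at 0 in every HPA-12 library and had 9, 15.8 and 2.69 FPKM and 2.38, 1.8 and 2.65 FPKM in the combination libraries. HBA1 with HBA2, and HBG1 with HBG2, are near-identical copies whose reads the counting may have divided, so their separate levels are uncertain. AHSP, the chaperone of free alpha chains, had 1008, 970.4 and 943 FPKM with the combination, against 0.871, 1.81 and 1.16 FPKM with HPA-12 (8.76 ± 0.15, adjusted p = 5.2e-08). HBE1 was at 0 in all 6 libraries and HBZ was above 1 FPKM in 1 of them, so neither embryonic chain was tested.

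The enzymes that make haem and the carriers that bring it iron were raised with the globins. Of 18 haem synthesis and transport genes tested of 19 listed, 14 rose and 0 fell, and all 18 reached 1 FPKM in both groups. ALAS2, the erythroid enzyme of the first step, had 941, 884 and 891 FPKM in the combination libraries, against 5.5, 5.11 and 6.21 FPKM in the HPA-12 libraries (7.10 ± 0.09, adjusted p = 1.0e-08). UROD, a later enzyme, rose by 2.74 ± 0.10, SLC25A39 by 4.13 ± 0.09 and SLC25A37, the mitochondrial iron importer mitoferrin, by 3.45 ± 0.08. Of 14 iron genes tested of 17 listed, 10 rose and 1 fell, but 5 rose and 5 fell on the deposited values, and 6 rose when any 1 of the HPA-12 libraries was left out. Among the 11 that reached 1 FPKM in both groups, 8 rose and 0 fell. TFRC, the transferrin receptor, had 149, 135 and 151 FPKM in the combination libraries, against 6.51, 6.34 and 6.33 FPKM in the HPA-12 libraries (4.30 ± 0.09, adjusted p = 1.2e-07). TFR2 had 28.5, 21.1 and 25.1 FPKM with the combination, against 1.86, 1.64 and 1.95 FPKM with HPA-12. FTL, the ferritin light chain, was already high and had 6793, 7181 and 6840 FPKM with the combination, against 3951, 3488 and 3775 FPKM with HPA-12 (0.89 ± 0.05, adjusted p = 1.8e-05).

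**Figure D2:**
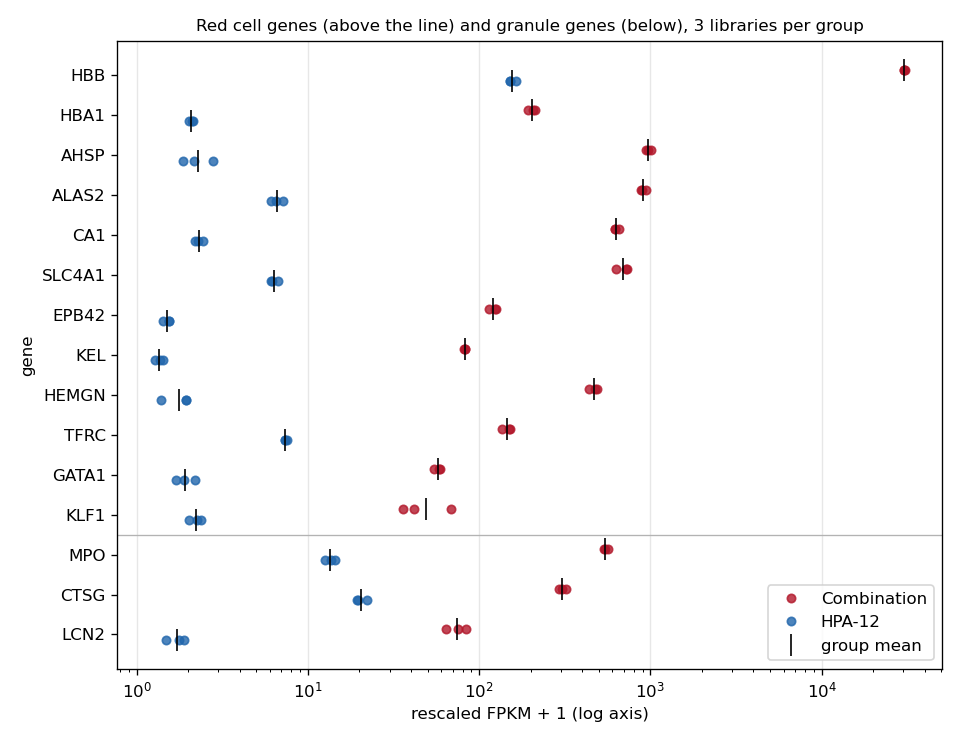
Rescaled FPKM + 1 (x axis, log scale) of 12 red cell genes, above the line, and 3 granule genes, below it, in each combination library (red) and each HPA-12 library (blue); black ticks are group means. In every row the 3 combination libraries lie to the right of the 3 HPA-12 libraries, with HBB at 30120 FPKM or more with the combination and at 164 FPKM or less with HPA-12.

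Over all tested members, proteins of the red cell membrane formed the list with the highest median after the globins. Of 24 genes tested of 26 listed, 23 rose and 1 fell, with a median of 4.26. Of the 24, 14 reached 1 FPKM in the combination libraries only. Among the 10 that reached it in both groups, 9 rose and 1 fell, with a median of 3.17. That was below the median of the mitochondrially encoded genes, 3.29, so the rank rests on the other 14. The gene that fell was ADD1, the widely expressed adducin subunit, at -0.65 ± 0.12 (named after its value was seen). SLC4A1, the band 3 anion exchanger, had 725, 724 and 630 FPKM in the combination libraries, against 5.72, 5.11 and 5.2 FPKM in the HPA-12 libraries (6.77 ± 0.09, adjusted p = 1.6e-08). EPB42, protein 4.2, had 122, 114 and 124 FPKM with the combination, against 0.424, 0.54 and 0.541 FPKM with HPA-12 (6.33 ± 0.12, adjusted p = 6.5e-08), and KEL, the Kell blood group protein, had 81, 82.2 and 81.8 FPKM with the combination, against 0.376, 0.277 and 0.417 FPKM with HPA-12 (5.93 ± 0.12, adjusted p = 1.1e-07). AQP1, a water channel, rose by 5.50 ± 0.14. Without combination library 1, 2 or 3, 9 members of the list were raised in each case, since genes that reached 1 FPKM in the 2 remaining combination libraries only were then not tested.

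Among other red cell genes, 17 of the 19 tested rose and 0 fell, 11 of them without any 1 combination library for the same reason, and 7 of the 19 reached 1 FPKM with the combination only. CA1, a carbonic anhydrase of red cells, had 656, 624 and 619 FPKM with the combination, against 1.43, 1.2 and 1.28 FPKM with HPA-12 (8.11 ± 0.09, adjusted p = 7.5e-09), and CA2 rose by 5.51 ± 0.11. HEMGN, hemogen, a nuclear protein of erythroid cells, had 477, 487 and 439 FPKM with the combination, against 0.388, 0.954 and 0.947 FPKM with HPA-12 (8.07 ± 0.16, adjusted p = 8.7e-08). PRDX2, an abundant red cell peroxidase, rose by 3.80 ± 0.07 and SELENBP1 by 5.87 ± 0.14. Of the 18 transcription factors of erythroid and stem cells tested, 8 rose and 2 fell, and 9 fell on the deposited values. Among the 16 that reached 1 FPKM in both groups, 6 rose and 2 fell, with a median of 0.135. The other 2 reached it in the combination libraries only. GATA1 had 57.9, 57.2 and 53.8 FPKM with the combination, against 0.885, 1.18 and 0.708 FPKM with HPA-12 (4.90 ± 0.14, adjusted p = 6.0e-07). KLF1 had 67.6, 40.9 and 35.1 FPKM with the combination, against 1.38, 1.26 and 1.02 FPKM with HPA-12 (4.41 ± 0.25, adjusted p = 1.6e-05). TAL1 rose by 3.58 ± 0.19 and GFI1B, a repressor of erythroid and platelet precursors, by 3.25 ± 0.19. EPOR, the erythropoietin receptor, had 31.4, 19.97 and 23.5 FPKM with the combination, against 3, 2.72 and 3.45 FPKM with HPA-12 (2.66 ± 0.19, adjusted p = 5.2e-05). 

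Markers of other cell types were summed over each list in every library. The 16 megakaryocyte and platelet markers summed to 15.63 to 21.86 FPKM in the combination libraries, against 8.37 to 10.6 FPKM in the HPA-12 libraries. Of these, 4 were tested and 2 rose, but 0 rose without combination library 2 or 3 and 1 without any 1 of the other 4 libraries. PF4 was at 0 in every library, and TUBB1, a platelet tubulin, had 4.4, 5.76 and 3.44 FPKM with the combination, against 0.552, 0.362 and 0.46 FPKM with HPA-12. The 12 mast cell, basophil and eosinophil markers summed to 34.2 to 65.04 FPKM in the combination libraries, against 5.36 to 6.97 FPKM in the HPA-12 libraries, and 3 of the 4 tested rose. Of the 4, 2 reached 1 FPKM in the combination libraries only, and 1 rose without combination library 2 or 3. CPA3, a mast cell carboxypeptidase, had 16.9, 14.6 and 24.7 FPKM with the combination, against 0.685, 0.558 and 0.807 FPKM with HPA-12, while TPSAB1, the mast cell tryptase, was at 0 in all combination libraries. TPSB2, a sister tryptase whose reads may be divided with TPSAB1, had 2.14, 3.77 and 7.53 FPKM with the combination, against 1.7, 1.57 and 1.33 FPKM with HPA-12, and did not pass (0.99 ± 0.36, adjusted p = 0.055; named after its values were seen). The 16 lymphoid markers summed to 41.9 to 47.05 FPKM, against 48.3 to 51.95 FPKM with HPA-12, and 2 of the 6 tested rose and 2 fell; 0 rose on the deposited values, without combination library 1 or without any 1 HPA-12 library, and 0 fell in the last case. The 13 stromal and epithelial markers summed to 40.5 FPKM in combination library 2 and to 15.2 and 17.2 FPKM in the other combination libraries, against 49.1 to 53.6 FPKM with HPA-12. Of the 4 tested, 1 rose and 2 fell, but 0 rose on the deposited values or without combination library 1 or 3, and 1 fell without any 1 HPA-12 library. The globin list summed to 33000 to 33260 FPKM in the combination libraries. The lists differ in their members and in the level of each transcript, so these sums do not compare amounts of cells. The part of other cell types in the red cell result was not tested.

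Promoter windows of 4 of these genes are shown, because GATA1 itself rose and its recognition letters can be looked for in them. They were chosen among windows that held a match; that of HBM, for instance, held 0. They are the 250 bases before the gene start in RefSeq, on build GRCh38.p14, from 5′ to 3′ on the strand of the gene, and capitals mark the letters GATA with A or T before them and A or G after them, on either strand, so that a match on the other strand reads TTATCT, for instance. The windows are HBD at chr11:5234484-5234733, minus strand, ALAS2 at chrX:55030978-55031227, minus strand, EPB42 at chr15:43221019-43221268, minus strand and KEL at chr7:142962364-142962613, minus strand.
HBD: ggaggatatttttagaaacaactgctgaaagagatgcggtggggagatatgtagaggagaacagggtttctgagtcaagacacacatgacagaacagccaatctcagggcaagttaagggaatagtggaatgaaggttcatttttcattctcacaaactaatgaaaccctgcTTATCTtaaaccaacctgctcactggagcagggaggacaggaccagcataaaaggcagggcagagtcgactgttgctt
ALAS2: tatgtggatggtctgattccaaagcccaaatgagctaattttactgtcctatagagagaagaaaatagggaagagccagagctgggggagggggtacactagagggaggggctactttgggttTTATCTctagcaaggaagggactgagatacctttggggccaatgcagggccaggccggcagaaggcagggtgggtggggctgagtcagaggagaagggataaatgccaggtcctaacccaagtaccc
EPB42: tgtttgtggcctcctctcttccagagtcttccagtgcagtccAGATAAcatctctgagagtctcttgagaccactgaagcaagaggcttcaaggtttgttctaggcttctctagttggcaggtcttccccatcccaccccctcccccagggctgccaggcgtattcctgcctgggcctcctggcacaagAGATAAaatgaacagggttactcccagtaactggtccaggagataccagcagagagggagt
KEL: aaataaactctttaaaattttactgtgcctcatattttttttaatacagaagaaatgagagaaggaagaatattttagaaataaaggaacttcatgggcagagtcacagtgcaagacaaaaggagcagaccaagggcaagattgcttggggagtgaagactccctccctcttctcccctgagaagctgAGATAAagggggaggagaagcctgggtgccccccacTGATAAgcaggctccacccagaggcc
HBD and ALAS2 held 1 match each, and EPB42 and KEL held 2 each. The first bases of the matches lay 78 bases before the start in HBD, 127 in ALAS2, 208 and 61 in EPB42, and 62 and 26 in KEL. Of the 75 genes on the globin, haem, membrane and other red cell lists, 50 were matched in the table by symbol, and 24 of them, 48.0%, held these letters in at least 1 window. Over all genes of the table, 26.2% did, and so did 10 of the 20 interferon-stimulated genes matched, a list described below with more lowered than raised members. By list, 13 of 20 membrane genes matched held them, but only 4 of 15 haem genes, 26.7%. Membrane genes also had more windows, 35 for 20 genes, against 35116 for 27305 genes. The shares were 63.6% in the megakaryocyte list and 87.5% in the mast cell, basophil and eosinophil list, of each of which only 4 members were tested. A match of letters is a description of the sequence and not a binding site.

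Genes of neutrophil granules were raised as well, whereas several monocyte genes were lowered. Of 19 granule genes tested of 21 listed, 18 rose and 0 fell; 16 of the 19 reached 1 FPKM in both groups and 15 of these rose. MPO, myeloperoxidase, had 562, 540.3 and 534 FPKM in the combination libraries, against 13.4, 11.6 and 12.7 FPKM in the HPA-12 libraries (5.34 ± 0.08, adjusted p = 2.0e-08). CTSG, cathepsin G, had 304, 319 and 293 FPKM with the combination, against 18.6, 18.3 and 21.2 FPKM with HPA-12 (3.91 ± 0.08, adjusted p = 1.2e-07), and LTF, lactoferrin, had 45.7, 48.7 and 53.8 FPKM with the combination, against 2.25, 1.78 and 1.87 FPKM with HPA-12. LCN2, an iron-trapping protein of secondary granules, had 82.7, 74.2 and 62.7 FPKM with the combination, against 0.779, 0.476 and 0.88 FPKM with HPA-12 (5.44 ± 0.17, adjusted p = 7.6e-07). CXCR2, a chemokine receptor named after its value was seen, was the member that did not pass (-1.25 ± 0.61, adjusted p = 0.13). MPO, CTSG, LTF and LCN2 were higher in each combination library than in any HPA-12 library, as were 2863 of all 10237 genes tested.

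Of 18 monocyte and macrophage genes tested of 22 listed, 5 rose and 7 fell, beside 23.0% raised and 26.8% lowered of all genes tested. Among the 16 that reached 1 FPKM in both groups, 3 rose, 18.8%, beside 20.1% of all such genes, and 7 fell. The other 2 reached it in the combination libraries only. CSF1R, the receptor of the macrophage growth factor, had 8.72, 12.2 and 8.6 FPKM in the combination libraries, against 64.2, 55.4 and 54.9 FPKM in the HPA-12 libraries (-2.46 ± 0.16, adjusted p = 2.9e-05). CD86, a ligand that co-stimulates T cells, had 5.5, 4.69 and 4.29 FPKM with the combination, against 22.2, 21.7 and 23.2 FPKM with HPA-12 (-2.01 ± 0.13, adjusted p = 3.4e-05), and CD4 had 36.8, 44.4 and 48.4 FPKM with the combination, against 163, 139.7 and 149.5 FPKM with HPA-12 (-1.79 ± 0.12, adjusted p = 3.4e-05). ITGAM, the integrin CD11b, rose by 1.77 ± 0.18 and the scavenger receptor CD36 by 3.25 ± 0.14; without any 1 library, 2 or 3 members of the list rose, and 3 on the deposited values. Among 13 myeloid transcription factors tested, 3 rose and 5 fell. SPI1, PU.1, a factor of myeloid cells, had 77.2, 67.2 and 74.5 FPKM with the combination, against 215, 185 and 199 FPKM with HPA-12 (-1.44 ± 0.09, adjusted p = 2.1e-05). CEBPA, a factor needed for granulocytes, had 17.9, 20.3 and 16.7 FPKM with the combination, against 86.7, 69.9 and 75.1 FPKM with HPA-12 (-2.02 ± 0.12, adjusted p = 2.1e-05), and IRF8, a factor of monocytes, fell by 1.10 ± 0.16. JUNB rose by 2.98 ± 0.08.

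Immediate early genes, which growth factors and stress switch on within minutes through serum response factor and AP-1, rose in the combination libraries. Of 24 tested of 25 listed, 20 rose and 0 fell, with a median of 2.13; 16 of the 20 members that reached 1 FPKM in both groups rose. ARC, a gene best known from synapses, had 1479, 1382 and 1596 FPKM in the combination libraries, against 0.263, 0.148 and 0.102 FPKM in the HPA-12 libraries and the largest log2 fold change of all genes tested (10.31 ± 0.10, adjusted p = 7.5e-09). EGR1, a zinc finger factor, had 546, 491 and 435 FPKM in the combination libraries, against 0.751, 0.909 and 0.681 FPKM in the HPA-12 libraries (8.11 ± 0.12, adjusted p = 2.3e-08). JUN, a subunit of AP-1, had 1020, 1060 and 1156 FPKM with the combination, against 33.4, 28.3 and 29.1 FPKM with HPA-12 (5.11 ± 0.08, adjusted p = 4.2e-08), and FOSB, its partner, had 150.4, 129 and 155 FPKM with the combination, against 1.28, 0.89 and 1.14 FPKM with HPA-12 (6.11 ± 0.13, adjusted p = 1.2e-07). No combination library overlapped an HPA-12 library for any of them, but the rule that named ARC and EGR1 required this. Among all 10237 genes tested, 2863 were higher and 3600 lower without overlap.

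The EGR1 promoter is shown because EGR1 is the textbook target of serum response factor, which binds CArG boxes. Its window, with the same build and length, lies at chr5:138465229-138465478, plus strand, and capitals mark CArG boxes.
EGR1: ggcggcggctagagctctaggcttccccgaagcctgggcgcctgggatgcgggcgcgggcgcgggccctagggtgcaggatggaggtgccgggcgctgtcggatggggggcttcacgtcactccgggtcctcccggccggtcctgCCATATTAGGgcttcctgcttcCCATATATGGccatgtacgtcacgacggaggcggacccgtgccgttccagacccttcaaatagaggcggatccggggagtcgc
It held 2 CArG boxes, which began 105 and 83 bases before the start. Of 19 immediate early genes matched in the table, 3 held a CArG box in such a window, 15.8%, against 1.44% of all genes of the table. The list was chosen as immediate early genes, so this share describes the list and not the response in these libraries.

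Feedback inhibitors of cytokine and MAPK signalling were among the genes with the largest rises, while the receptors of the cytokines were mostly lower. SOCS1, an inhibitor of JAK kinases, had 409, 405 and 428 FPKM in the combination libraries, against 1.5, 1.28 and 1.78 FPKM in the HPA-12 libraries (7.37 ± 0.11, adjusted p = 2.0e-08), and SOCS3 had 44, 42.8 and 59.8 FPKM with the combination, against 3.64, 3.22 and 3.93 FPKM with HPA-12 (3.43 ± 0.16, adjusted p = 7.1e-06). PIM1, a survival kinase and STAT5 target, had 53.3, 74.2 and 60.8 FPKM with the combination, against 8.51, 7.44 and 8.53 FPKM with HPA-12 (2.79 ± 0.15, adjusted p = 1.1e-05). Of 18 genes of FLT3, STAT5, SOCS and PIM tested, 9 rose and 3 fell, or 5 fell on the deposited values. Among the 17 that reached 1 FPKM in both groups, 8 rose and 3 fell. FLT3 itself had 70.8, 72.7 and 79.4 FPKM with the combination, against 121, 122 and 123 FPKM with HPA-12 (-0.71 ± 0.07, adjusted p = 2.4e-04). Of 13 MAPK feedback genes tested, 7 rose and 1 fell, or 4 rose without combination library 1 and 4 fell on the deposited values; DUSP2, a phosphatase of MAP kinases, had 185, 201 and 207 FPKM with the combination, against 0.95, 1.41 and 1.39 FPKM with HPA-12 (6.47 ± 0.13, adjusted p = 8.7e-08). Among the 11 MAPK feedback genes that reached 1 FPKM in both groups, 5 rose and 1 fell. RASD1, a small GTPase induced by dexamethasone, had 786, 709 and 787 FPKM with the combination, against 0.749, 0.544 and 0.664 FPKM with HPA-12 (8.85 ± 0.10, adjusted p = 7.5e-09), and PHLDA2 had 454, 370.3 and 470.2 FPKM with the combination, against 1.85, 1.51 and 1.73 FPKM with HPA-12.

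Of 19 haematopoietic cytokine receptors tested of 22 listed, 3 rose and 12 fell, with a median of -1.05. Among the 17 that reached 1 FPKM in both groups, 3 rose and 10 fell, with a median of -0.93. The other 2 reached it in the HPA-12 libraries only, and 9 members of the list fell without any 1 HPA-12 library. TNFRSF1B, a receptor of tumour necrosis factor, had 33, 38.4 and 26.9 FPKM with the combination, against 147, 127 and 137 FPKM with HPA-12 (-2.04 ± 0.14, adjusted p = 3.5e-05). CXCR4, the receptor that keeps blood precursors in the marrow, had 38.8, 35.5 and 31.7 FPKM with the combination, against 112, 111 and 105 FPKM with HPA-12 (-1.61 ± 0.09, adjusted p = 1.9e-05). Outside the list, CRLF2, the receptor of thymic stromal lymphopoietin, had 1.73, 1.78 and 0.843 FPKM with the combination, against 16, 16.2 and 20.2 FPKM with HPA-12 (-2.93 ± 0.22, adjusted p = 5.8e-05). Besides EPOR, IL6ST, the shared chain of the interleukin 6 receptors, rose by 2.32 ± 0.18.

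Single genes of growth arrest and cell death rose strongly, whereas their lists went both ways, beside 23.0% raised and 26.8% lowered of all genes tested. GADD45B had 1556, 1404 and 1398 FPKM in the combination libraries, against 13.5, 11.9 and 11.1 FPKM in the HPA-12 libraries (6.79 ± 0.09, adjusted p = 1.6e-08), and GADD45G had 232, 298 and 262 FPKM with the combination, against 0.297, 0.239 and 0.277 FPKM with HPA-12 (7.70 ± 0.13, adjusted p = 3.9e-08); both encode small proteins that respond to growth arrest and stress. Of 16 growth arrest genes tested, 8 rose and 4 fell; 5 rose without combination library 1 or 2. Of the 16, 3 reached 1 FPKM in the combination libraries only, and among the 13 that reached it in both groups 5 rose and 4 fell, with a median of -0.13. On the deposited values 8 of the 16 fell. CDKN1C, the cyclin kinase inhibitor p57, had 149.5, 142 and 141 FPKM with the combination, against 10.1, 8.79 and 10.5 FPKM with HPA-12 (3.75 ± 0.10, adjusted p = 3.2e-07). Of 20 p53 targets tested, 8 rose and 4 fell, or 8 fell on the deposited values: CDKN1A, p21, rose by 2.35 ± 0.11 and GDF15 by 3.74 ± 0.16. In the BCL2 family 5 of 14 rose and 3 fell, but 9 fell on the deposited values. PMAIP1, the death-promoting protein NOXA, had 74, 78.1 and 109 FPKM with the combination, against 1.95, 2.55 and 3.07 FPKM with HPA-12 (4.63 ± 0.19, adjusted p = 3.9e-06), BCL2L1, which codes for BCL-XL, rose by 2.18 ± 0.20, and BMF, another death-promoting member, had 5.1, 9.89 and 7.62 FPKM with the combination, against 65.9, 57.4 and 58.8 FPKM with HPA-12 (-2.89 ± 0.21, adjusted p = 5.6e-05).

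The split of cell cycle genes depended on the rescaling. Of 32 DNA replication genes tested, 10 rose, 31.2%, beside 23.0% of all genes tested, and 2 fell. Only 6 rose without HPA-12 library 1 or 2, and 3 rose and 12 fell on the deposited values. RRM2, a subunit of ribonucleotide reductase, had 21.2, 29.3 and 35.5 FPKM with the combination, against 6.61, 6.34 and 6.25 FPKM with HPA-12 (1.97 ± 0.19, adjusted p = 2.2e-04). Of 26 mitosis genes tested, 11 rose and 1 fell, but 5 rose and 10 fell on the deposited values. MKI67, the Ki-67 antigen, had 16.7, 22 and 23.4 FPKM with the combination, against 10.7, 9.93 and 8.8 FPKM with HPA-12 (0.99 ± 0.16, adjusted p = 0.0023), but 0.35 with an adjusted p of 0.083 on the deposited values, and PTTG1, securin, rose by 2.38 ± 0.15. Of 18 histone genes tested, 13 rose and 2 fell, with a median of 3.22, and 11 rose without any 1 combination library. Among the 15 that reached 1 FPKM in both groups, 10 rose and 2 fell, with a median of 2.08. The other 3 reached it in the combination libraries only. H4C3 had 298, 196 and 232 FPKM with the combination, against 2.91, 3.13 and 3.32 FPKM with HPA-12 (5.86 ± 0.16, adjusted p = 4.8e-07). Transcripts of most replication-dependent histone genes carry no poly(A) tail and the genes are near-identical copies, so their levels depend on how libraries were made and reads were assigned, which the labels do not state.

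Genes that build ribosomes were higher in the combination libraries. Of 28 MYC targets and ribosome biogenesis genes tested of 29 listed, 19 rose and 0 fell, with a median of 1.04, and 4 fell on the deposited values. Among the 26 that reached 1 FPKM in both groups, 17 rose and 0 fell. MYC had 22, 22.6 and 23.1 FPKM in the combination libraries, against 5.38, 5.35 and 5.49 FPKM in the HPA-12 libraries (1.88 ± 0.12, adjusted p = 2.2e-05). NPM1, nucleophosmin, had 78.1, 79.8 and 78.7 FPKM with the combination, against 18.5, 21.2 and 21.3 FPKM with HPA-12 (1.91 ± 0.09, adjusted p = 6.7e-06). SRM, which makes spermidine, had 30.7, 22.1 and 43.2 FPKM with the combination, against 6.05, 4.82 and 5.58 FPKM with HPA-12 (2.30 ± 0.24, adjusted p = 3.1e-04), and BOP1, a factor of the large ribosomal subunit, had 20.6, 21.2 and 19.9 FPKM with the combination, against 8.74, 7.26 and 8.06 FPKM with HPA-12 (1.26 ± 0.12, adjusted p = 2.1e-04). Of the 10 partners and relatives of MYC tested, MYC included, 2 rose and 7 fell. MXI1 rose by 2.01 ± 0.16, MXD1 changed by -1.18 ± 0.12 and MXD4 by -1.41 ± 0.15.

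Cytosolic ribosomal proteins and their 2 listed elongation factors rose almost without exception, 32 of 33, with a median of 1.25. The one that fell was the elongation factor EEF2, at -0.54 ± 0.07 (named after its value was seen). RPS6 had 1546, 1527 and 1524 FPKM with the combination, against 336, 321 and 347 FPKM with HPA-12 (2.19 ± 0.05, adjusted p = 1.1e-07), and RPL32 had 616, 629.8 and 649.7 FPKM with the combination, against 161, 146 and 163 FPKM with HPA-12 (2.01 ± 0.06, adjusted p = 7.3e-07). Their transcripts are short, with a median of 1197 bases against 3289 over all genes tested, and short transcripts as a class were more often raised, as given above. On the deposited values, 28 of the 33 rose.

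Most heat shock genes rose, while the split of proteasome genes depended on the rescaling. Of 20 heat shock genes tested, 13 rose and 1 fell, with a median of 1.60, and 4 fell on the deposited values. HSPA8, the constitutive cytosolic chaperone, had 233, 223 and 221 FPKM in the combination libraries, against 66.6, 64.3 and 66 FPKM in the HPA-12 libraries (1.77 ± 0.06, adjusted p = 1.2e-06), and HSP90AB1 had 314, 324 and 307 FPKM with the combination, against 104, 95 and 101 FPKM with HPA-12 (1.65 ± 0.06, adjusted p = 1.9e-06). The stress-induced pair HSPA1A and HSPA1B, near-identical copies, rose by 3.80 ± 0.13 and 4.32 ± 0.12. Of 24 proteasome genes tested, 13 rose and 2 fell; 7 rose without HPA-12 library 1, 8 without library 3, and on the deposited values 2 rose and 7 fell. PSMA7 had 92, 80.2 and 84.6 FPKM with the combination, against 39.2, 36.7 and 36.8 FPKM with HPA-12 (1.17 ± 0.09, adjusted p = 5.2e-05).

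All 13 mitochondrially encoded genes rose, by a median of 3.29 log2 units, while nuclear genes of the same complexes had a median of 0.33. MT-ND2, a subunit of complex I, had 55080, 56500 and 57450 FPKM in the combination libraries, against 3795, 3969 and 4146 FPKM in the HPA-12 libraries (3.83 ± 0.04, adjusted p = 7.5e-09). MT-CO1, the catalytic subunit of cytochrome oxidase, had 76090, 77850 and 78520 FPKM with the combination, against 13060, 11410 and 12470 FPKM with HPA-12 (2.66 ± 0.05, adjusted p = 6.8e-08). Log2 fold changes of the 13 ran from 2.64 for MT-ND4L to 3.83 for MT-ND2. Their share of the FPKM sum was 62.2 ± 0.50% with the combination and 21.6 ± 0.47% with HPA-12 (SD, n = 3 each), a difference of 40.6 percentage points. The exact two-sided permutation p was 0.1, the smallest that 3 against 3 libraries can give. Of 28 nuclear oxidative phosphorylation genes tested, 11 rose and 4 fell, but 4 rose and 14 fell on the deposited values. NDUFA4, of cytochrome oxidase, rose by 2.10 ± 0.17 and CYCS, cytochrome c, by 2.01 ± 0.14. Of 19 factors that express the mitochondrial genome, 6 rose and 2 fell, but 3 rose without HPA-12 library 1, and 2 rose and 6 fell on the deposited values.

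Of the 3 gene products in the study's title, the transcript of 1 rose. HSPA5, which encodes GRP78, the main chaperone of the endoplasmic reticulum, had 90.2, 79.6 and 80.8 FPKM in the combination libraries, against 21.4, 20.8 and 21 FPKM in the HPA-12 libraries (1.94 ± 0.09, adjusted p = 5.3e-06). ATF6, the membrane-bound factor that induces HSPA5, had 3.81, 7.4 and 1.95 FPKM in the combination libraries, against 4.81, 5.07 and 4.82 FPKM in the HPA-12 libraries (-0.26 ± 0.36, adjusted p = 0.58), and its log2 fold change was 0.10 without combination library 3. DDIT3, which encodes CHOP, had 3.29, 8.86 and 1.92 FPKM in the combination libraries, against 1.85, 2.47 and 1.96 FPKM in the HPA-12 libraries (0.69 ± 0.43, adjusted p = 0.22). Combination library 2 held the highest value of both genes, the groups overlapped for both, and neither difference passed the test. XBP1, the factor spliced by IRE1, had 27.4, 41.8 and 52.2 FPKM with the combination, against 19.2, 16.7 and 18.4 FPKM with HPA-12 (1.07 ± 0.22, adjusted p = 0.0067), but 0.40 with an adjusted p of 0.13 on the deposited values. ATF4, the factor of the integrated stress response, had 198, 181 and 147 FPKM with the combination, against 132, 123 and 125 FPKM with HPA-12 (0.45 ± 0.11, adjusted p = 0.013), but -0.24 with an adjusted p of 0.097 on the deposited values.

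The HSPA5 promoter is shown because HSPA5 carries the element through which ATF6 acts. The window, of the same build and length, lies at chr9:125241344-125241593, minus strand, and capitals mark the endoplasmic reticulum stress element in its strict form, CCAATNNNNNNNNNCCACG on either strand.
HSPA5: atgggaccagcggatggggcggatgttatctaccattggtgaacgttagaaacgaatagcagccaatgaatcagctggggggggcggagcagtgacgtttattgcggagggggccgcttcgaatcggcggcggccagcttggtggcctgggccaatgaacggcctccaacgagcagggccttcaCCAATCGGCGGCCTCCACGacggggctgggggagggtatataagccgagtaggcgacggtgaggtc
It held 1 strict match, which began 66 bases before the start. Among 18 ATF6-branch genes matched in the table, 6 held such a match, 33.3%, against 0.0916% of all genes of the table. The list was chosen as ATF6-branch genes, so this share describes the list and not the response in these libraries.

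The gene lists around these factors did not move one way. Of 20 ATF6-branch chaperone and degradation genes tested, 8 rose and 5 fell, with a median of 0.18, beside shares of 23.0% and 26.8% over all genes. The chaperones HSP90B1 (1.33 ± 0.14), SDF2L1 (1.56 ± 0.26) and CRELD2 (0.74 ± 0.15) rose with HSPA5, though CRELD2 had 0.14 with an adjusted p of 0.42 on the deposited values. EDEM1, which directs misfolded glycoproteins to degradation, had 11.8, 16.4 and 17.2 FPKM with the combination, against 35.9, 36.4 and 35.1 FPKM with HPA-12 (-1.21 ± 0.15, adjusted p = 7.3e-04). On the deposited values 3 rose and 11 fell, with GC centring 1 fell, and 1, 3 and 2 fell without HPA-12 library 1, 2 and 3, and 3 without combination library 1 or 2. Of 21 IRE1 and XBP1 genes tested, 8 rose and 3 fell, or 4 and 9 on the deposited values and 5 fell without combination library 3; OSTC, a subunit of oligosaccharyltransferase, rose by 1.69 ± 0.10. Of 27 PERK, ATF4 and CHOP genes tested, 9 rose and 7 fell, or 12 fell on the deposited values. ATF3 had 126, 136 and 149.8 FPKM with the combination, against 6.9, 6.71 and 6.11 FPKM with HPA-12 (4.19 ± 0.11, adjusted p = 2.9e-07), PPP1R15A, which ends the translation block, rose by 1.40 ± 0.10, and BBC3, the death-promoting protein PUMA, by 2.62 ± 0.22. Without HPA-12 library 1, 2 and 3, 3, 4 and 4 members of this list fell.

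Of 33 ceramide and sphingolipid genes tested of 40 listed, 4 rose, 12.1%, and 11 fell, 33.3%, with a median of -0.30. Among the 30 that reached 1 FPKM in both groups, 3 rose and 9 fell. Over all genes tested, 23.0% rose and 26.8% fell, with a median of -0.15. CERT1, the gene of the protein that HPA-12 inhibits, had 3.63, 4.13 and 2.1 FPKM in the combination libraries, against 2.18, 2.57 and 2.53 FPKM in the HPA-12 libraries (0.29 ± 0.24, adjusted p = 0.34), but 0.51 with an adjusted p of 0.037 without combination library 3, and -0.22 on the deposited values. SGMS1, a sphingomyelin synthase of the Golgi, had 7.4, 4.9 and 5.12 FPKM with the combination, against 0.428, 0.651 and 0.409 FPKM with HPA-12 (2.17 ± 0.22, adjusted p = 2.4e-04). PSAP, the precursor of the saposins that help degrade sphingolipids, had 181, 204 and 212 FPKM with the combination, against 430.3, 376 and 396 FPKM with HPA-12 (-1.01 ± 0.08, adjusted p = 8.8e-05). SGPL1, which breaks down sphingosine phosphate, fell by 1.17 ± 0.19. When any 1 HPA-12 library was left out, 2 rose and 4 fell; 2 rose without combination library 2. With the rescaling over genes of at least 5 FPKM 7 fell, and on the deposited values 1 rose and 19 fell.

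The lists of lysosomal, interferon-stimulated and antigen presentation genes each held more lowered than raised members. Among all genes tested, 26.8% were lowered and 23.0% raised. Of 28 lysosome and autophagy genes tested, 3 rose and 14 fell, with a median of -0.52; 9 fell without HPA-12 library 1, and 1 rose and 22 fell on the deposited values. CTSB, cathepsin B, had 77.5, 91.4 and 71.4 FPKM in the combination libraries, against 263, 234 and 246 FPKM in the HPA-12 libraries (-1.62 ± 0.10, adjusted p = 2.8e-05), and LAMP1, a lysosomal membrane protein, had 40.6, 49.6 and 34.1 FPKM with the combination, against 117, 106 and 109.9 FPKM with HPA-12 (-1.42 ± 0.14, adjusted p = 2.2e-04). Of 22 interferon-stimulated genes tested, 1 rose and 11 fell, but 4 fell without any 1 HPA-12 library and 18 on the deposited values. Among the 19 that reached 1 FPKM in both groups, 1 rose and 8 fell. The other 3 reached it in the HPA-12 libraries only, so that they could be tested only because they were higher there. STAT2, the factor of the type I interferon response, had 10.8, 12.6 and 10.8 FPKM with the combination, against 63.1, 56.4 and 60.1 FPKM with HPA-12 (-2.30 ± 0.11, adjusted p = 6.2e-06), OAS2 fell by 1.80 ± 0.19, and IRF1 rose by 1.15 ± 0.15. Of 19 MHC and antigen presentation genes tested, 3 rose and 9 fell, and 0 rose on the deposited values. Among the 17 that reached 1 FPKM in both groups, 3 rose and 8 fell. HLA-DRA, a class II chain, had 60.1, 72.1 and 61.6 FPKM with the combination, against 129, 119.8 and 122 FPKM with HPA-12 (-0.93 ± 0.09, adjusted p = 2.2e-04), while B2M, the light chain of class I, rose by 0.54 ± 0.05 and had -0.16 on the deposited values.

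The genes with the largest decreases were mostly low in the combination libraries. CD70, a ligand of the T cell receptor CD27, had 2.06, 1.81 and 7.46 FPKM in the combination libraries, against 39.1, 36 and 35.3 FPKM in the HPA-12 libraries (-3.18 ± 0.40, adjusted p = 7.5e-04). TMEM86A, a lysoplasmalogenase, had 3.17, 0 and 1.84 FPKM with the combination, against 22, 18.6 and 18.1 FPKM with HPA-12 (-3.17 ± 0.49, adjusted p = 0.0018). GIPR, an incretin receptor, had 6.04, 9.19 and 7.58 FPKM with the combination, against 61.9, 57.7 and 59.4 FPKM with HPA-12 (-2.83 ± 0.15, adjusted p = 1.2e-05), and MEFV, pyrin of the inflammasome, had 2.21, 2.27 and 1 FPKM with the combination, against 18.2, 17.4 and 16.9 FPKM with HPA-12 (-2.74 ± 0.22, adjusted p = 9.1e-05). Of the 15 most lowered genes, the remaining ones, besides BMF and CRLF2 given above, were CALHM2, PILRA, LENG1, DACT3, GNMT, INAFM2, FAM167A, PPP1R11 and ZSWIM1, with log2 fold changes from -2.69 to -2.46. TMEM86A, CALHM2, LENG1, GNMT, PPP1R11 and ZSWIM1 each had 1 combination library at 0, and PPP1R11, at an adjusted p of 0.049, no longer passed without combination library 2 (0.051) or any 1 HPA-12 library (0.12, 0.10 and 0.091).

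Inflammatory and metabolic genes went both ways, beside 23.0% raised and 26.8% lowered of all genes tested. Of 20 NF-kB, chemokine and cytokine genes tested, 13 rose and 4 fell, with a median of 1.18, and 2 fell without HPA-12 library 1 or 3. CXCL8, interleukin 8, had 695, 641 and 636 FPKM with the combination, against 107, 137 and 127 FPKM with HPA-12 (2.41 ± 0.10, adjusted p = 3.3e-06), and NFKBIA, the inhibitor of NF-kB, had 213, 205 and 198 FPKM with the combination, against 25.1, 22.9 and 24.4 FPKM with HPA-12 (3.04 ± 0.08, adjusted p = 2.7e-07). Of 21 NRF2 and redox genes, 11 rose and 4 fell, but 7 rose and 9 fell on the deposited values, with SOD1 at 2.34 ± 0.10 and TXN, thioredoxin, at 2.10 ± 0.14. Of 23 glycolysis and hypoxia genes, 8 rose and 6 fell, but 5 rose without combination library 1, and 5 rose and 15 fell on the deposited values; HK1, hexokinase, had 62.4, 54.9 and 51.5 FPKM with the combination, against 11.4, 9.14 and 10.6 FPKM with HPA-12 (2.33 ± 0.13, adjusted p = 1.3e-05), and SLC2A1, the glucose transporter, rose by 1.92 ± 0.12. Among the 21 glycolysis and hypoxia genes that reached 1 FPKM in both groups, 6 rose and 6 fell. Of 22 cholesterol genes, 4 rose and 4 fell, or 11 fell on the deposited values. Of 16 FOXO and PI3K feedback genes, 6 rose and 3 fell, but 3 rose and 8 fell on the deposited values and 5 fell without combination library 1. CITED2 had 259, 278 and 242 FPKM with the combination, against 15.7, 13.2 and 12.7 FPKM with HPA-12 (4.13 ± 0.10, adjusted p = 3.2e-07). Of 17 genes of the KMT2A-fusion programme, 3 rose and 5 fell, or 2 fell without any 1 HPA-12 library and 0 rose and 12 fell on the deposited values. CDK6 rose by 0.79 ± 0.15, but by 0.14 with an adjusted p of 0.45 on the deposited values, and SOX4 had 24.9, 23.6 and 21.2 FPKM with the combination, against 70.2, 63 and 64.8 FPKM with HPA-12 (-1.47 ± 0.10, adjusted p = 3.5e-05).

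**Figure D3:**
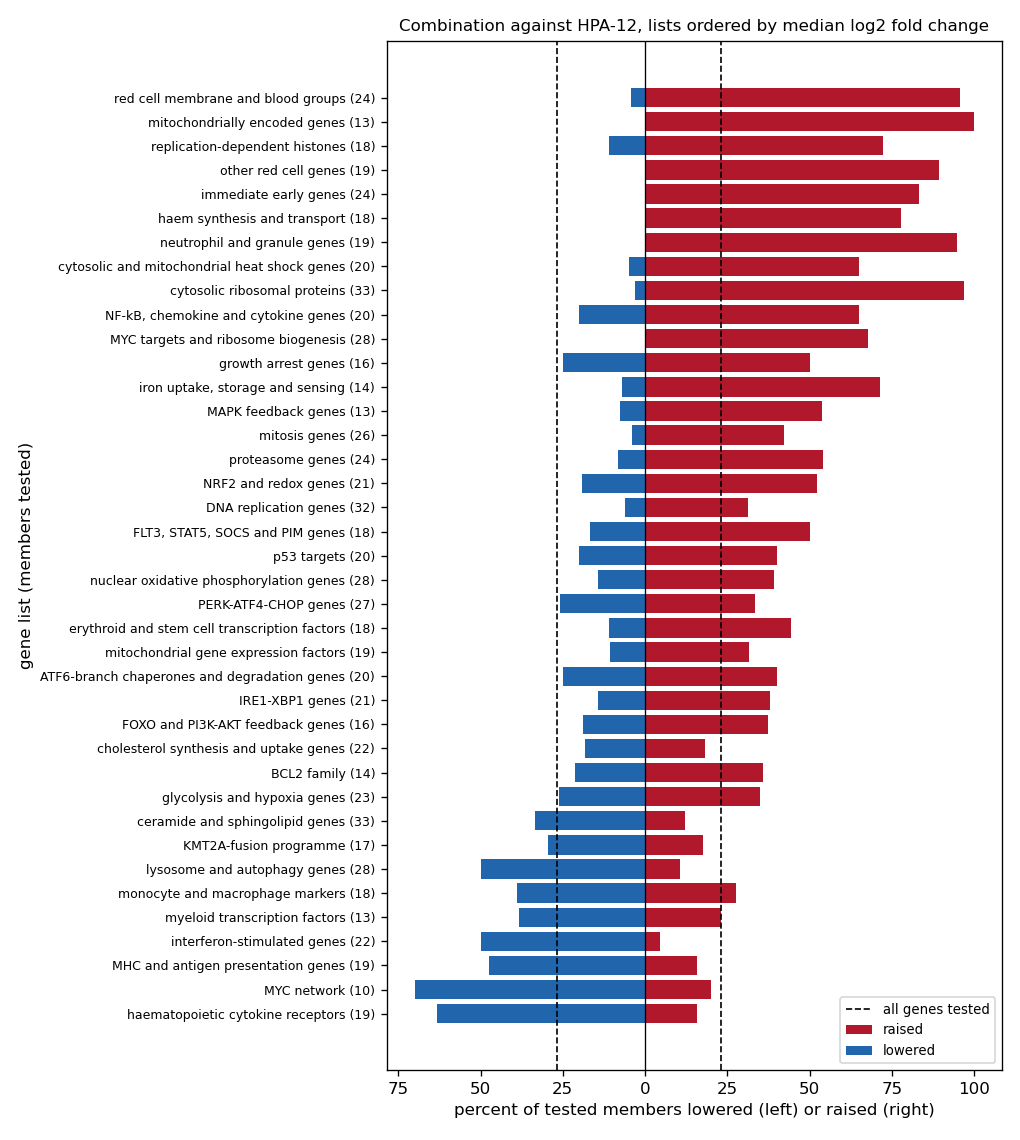
Share of the tested members of each gene list that rose (red, to the right) or fell (blue, to the left) in the combination libraries against the HPA-12 libraries, for lists with at least 10 tested members, ordered by their median log2 fold change. Dashed lines mark the shares over all genes tested, 23.0% raised and 26.8% lowered; red cell, mitochondrially encoded, granule and ribosomal lists reach far beyond the right line, and cytokine receptors and the MYC network beyond the left one.

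Whether crenolanib did the same in cells without HPA-12 was read from the other 6 libraries, which share none with the 6 above. Crenolanib against DMSO changed 8160 of 10571 genes tested, 77.2%, of which 3692 rose, 34.9%, and 4468 fell, 42.3%. This split also rests on the rescaling. Computed only over genes of at least 5 FPKM, 4749 rose and 3251 fell, and 4234 and 3843 did under upper-quartile scaling. The shares below hold for the main rescaling. Of the 2206 genes raised with HPA-12 present and tested in both, 46.7% rose without it and 35.3% fell. Of the 2690 lowered with HPA-12 present, 50.4% fell without it and 24.9% rose. Seen from the other side, 29.6% of the 3481 genes that crenolanib raised without HPA-12 were raised with it. Across 11086 genes the log2 fold changes of the 2 responses correlated at 0.30 (Pearson) and 0.14 (Spearman), as a description, since genes share libraries and are not replicates.

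**Figure D4:**
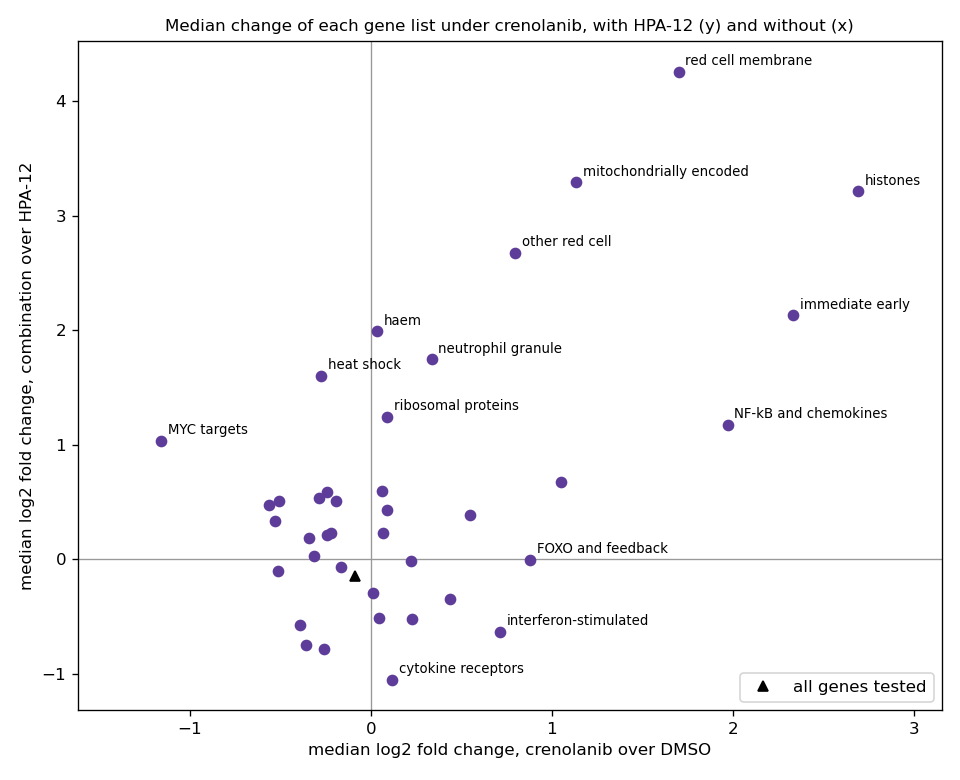
Median log2 fold change of each gene list under crenolanib in the presence of HPA-12 (y axis, combination over HPA-12) and in its absence (x axis, crenolanib over DMSO), for lists with at least 10 tested members; the triangle is all genes tested. Red cell membrane, histone and immediate early genes are high on both axes, MYC targets are at 1.04 and -1.16, and interferon-stimulated genes at -0.63 and 0.72.

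Most red cell membrane and immediate early genes were raised by crenolanib in both settings. HBB rose by 7.60 ± 0.04 in combination over HPA-12 and by 5.81 ± 0.05 in crenolanib over DMSO. ALAS2 rose by 7.10 ± 0.09 and 4.12 ± 0.08 in the same order, and SLC4A1 by 6.77 ± 0.09 and 4.35 ± 0.09. Of the red cell membrane genes tested, 21 of 23 rose without HPA-12, as did 22 of 23 immediate early genes. ARC rose by 9.43 ± 0.05 without HPA-12 and EGR1 by 6.17 ± 0.07. All 13 mitochondrially encoded genes rose in both settings, with medians of 3.29 with HPA-12 and 1.14 without it. The haem synthesis list did not follow: 14 of 18 rose and 0 fell with HPA-12, and 6 rose and 7 fell without it.

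The difference between the responses was tested over all 12 libraries. This interaction is the response with HPA-12 minus the response without it, in log2 units, and 5908 of 11086 genes passed, 53.3%: 2750 were more positive with HPA-12, 24.8%, and 3158 more negative, 28.5%. On the deposited values 1633 were more positive and 5541 more negative, so the counts below hold for the rescaled values. MYC targets and ribosome biogenesis genes went opposite ways: of 28 genes, crenolanib raised 19 and lowered 0 with HPA-12, and raised 1 and lowered 26 without it. The interaction was more positive for 26 of them and more negative for 1. BOP1 had 23.3 ± 0.724 FPKM with the combination, 8.89 ± 0.839 with HPA-12, 17.7 ± 1.54 with crenolanib and 56.9 ± 2.78 with DMSO (interaction 2.93 ± 0.22, adjusted p = 6.8e-08). Of 21 heat shock genes, 17 had a more positive and 1 a more negative interaction. HSPA8 had 256 ± 8.22 FPKM with the combination, 72.8 ± 1.46 with HPA-12, 215 ± 6.13 with crenolanib and 554 ± 29.8 with DMSO (3.16 ± 0.16, adjusted p = 1.4e-09). For both genes the order was the same: DMSO highest, HPA-12 lowest, the combination above HPA-12 and still below DMSO. MYC itself had 25.6 ± 0.568 FPKM with the combination, 6 ± 0.0982 with HPA-12, 31.2 ± 2.96 with crenolanib and 140.1 ± 2.84 with DMSO (4.06 ± 0.18, adjusted p = 3.2e-10), with HPA-12 lowest and DMSO highest as well.

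Of 19 granule genes, 16 had a more positive response with HPA-12 and 0 a more negative one. MPO, with the most positive interaction among genes of at least 5 FPKM, had 618 ± 18.4 FPKM with the combination, 13.9 ± 1.01 with HPA-12, 308 ± 3.29 with crenolanib and 347 ± 4.25 with DMSO (5.55 ± 0.16, adjusted p = 2.4e-12). DNA replication (21 of 32), proteasome (16 of 24) and nuclear oxidative phosphorylation genes (17 of 29) also held many members with a more positive response, and 24, 16 and 17 of their members fell with crenolanib alone.

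In the other direction, 13 of 19 cytokine receptors, 14 of 23 interferon-stimulated genes and 14 of 28 lysosome and autophagy genes had a more negative response with HPA-12. CD86 had 5.47 ± 0.71 FPKM with the combination, 24.8 ± 0.931 with HPA-12, 14.3 ± 1.48 with crenolanib and 2.47 ± 0.0826 with DMSO (-4.14 ± 0.22, adjusted p = 2.0e-09), so that crenolanib lowered it with HPA-12 (-2.01 ± 0.13, adjusted p = 3.4e-05) and raised it without HPA-12 (2.14 ± 0.09, adjusted p = 5.0e-08). CXCL8 had 745 ± 39.7 FPKM with the combination, 137 ± 17 with HPA-12, 1331 ± 27 with crenolanib and 5.23 ± 0.539 with DMSO (-5.30 ± 0.26, adjusted p = 1.2e-09) and rose in both settings, by less with HPA-12. CRLF2 had 1.64 ± 0.598 FPKM with the combination, 19.4 ± 2.67 with HPA-12, 7.3 ± 1.33 with crenolanib and 0.825 ± 0.414 with DMSO (-5.16 ± 0.52, adjusted p = 1.6e-06). FLT3 had 84.2 ± 4.96 FPKM with the combination, 136 ± 1.53 with HPA-12, 116 ± 4.05 with crenolanib and 84.1 ± 0.92 with DMSO (-1.15 ± 0.14, adjusted p = 5.1e-06): crenolanib lowered it with HPA-12 and raised it without HPA-12 (0.43 ± 0.04, adjusted p = 1.5e-05).

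HSPA5 had 94.7 ± 6.9 FPKM with the combination, 23.4 ± 0.344 with HPA-12, 55.8 ± 1.03 with crenolanib and 73.2 ± 4.49 with DMSO (2.35 ± 0.17, adjusted p = 4.5e-08), and XBP1 had 45.8 ± 14 FPKM with the combination, 20.1 ± 1.47 with HPA-12, 28 ± 2.08 with crenolanib and 53.6 ± 2.65 with DMSO (2.02 ± 0.23, adjusted p = 3.0e-06). Both rose when crenolanib was added to HPA-12, and with crenolanib alone they fell by 0.41 ± 0.06 and 0.95 ± 0.06 log2 units. The difference for ATF4 did not pass (-0.20 ± 0.16, adjusted p = 0.29), but it was -0.92 with an adjusted p of 1.1e-05 on the deposited values and -0.34 with an adjusted p of 0.049 under upper-quartile scaling. DDIT3 had 5.31 ± 4.15 FPKM with the combination, 2.32 ± 0.36 with HPA-12, 2.94 ± 2.49 with crenolanib and 2 ± 0.586 with DMSO (0.50 ± 0.83, adjusted p = 0.63). ATF6 (-0.74 ± 0.28, adjusted p = 0.037) and CERT1 (-0.74 ± 0.26, adjusted p = 0.026) had more negative responses with HPA-12 present, but neither passed without combination library 3 (adjusted p of 0.34 and 0.19) or library 1 (0.099 and 0.051).

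**Figure D5:**
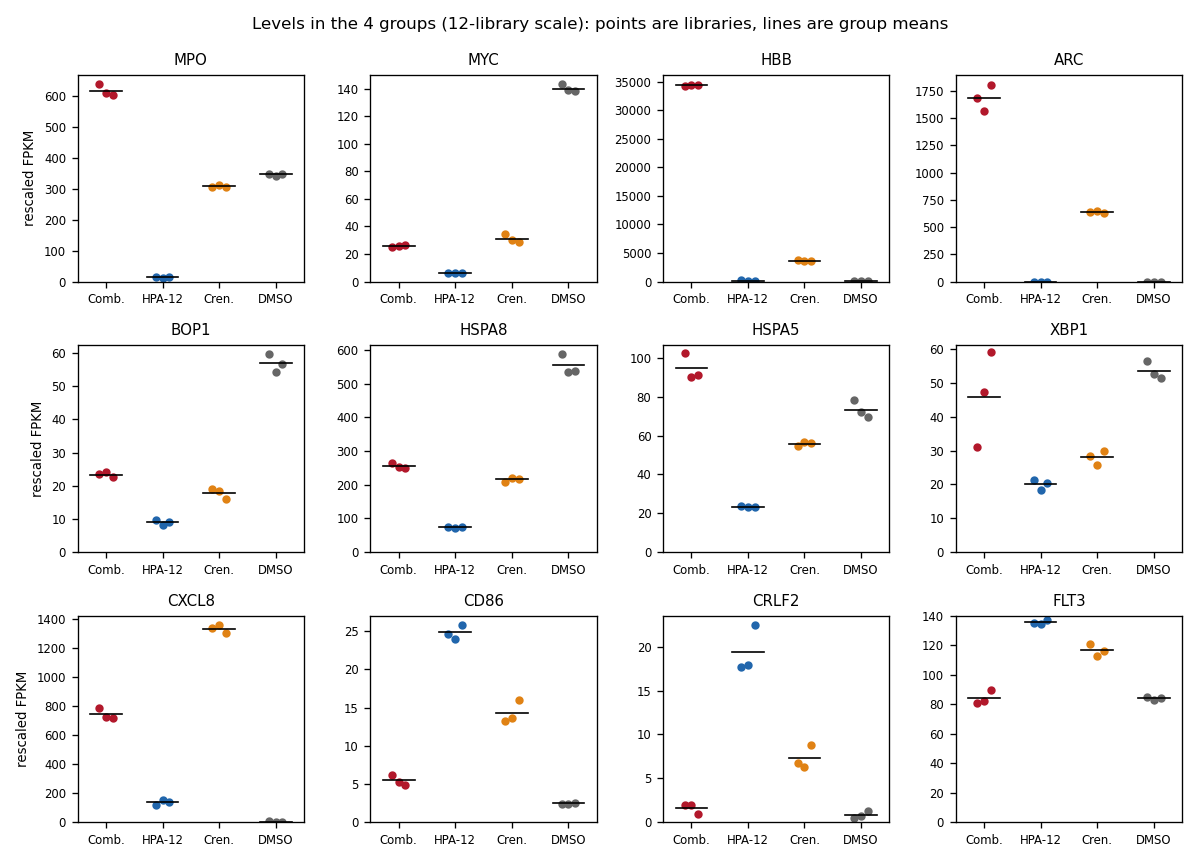
Rescaled FPKM on the 12-library scale (y axes, each from 0) of 12 genes in the combination, HPA-12, crenolanib and DMSO groups (x axes); points are libraries and lines are group means. MPO, HSPA5 and XBP1 are lowest with HPA-12, CD86, CRLF2 and FLT3 are highest with HPA-12, and HBB and ARC are near 0 in both groups without crenolanib.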

How the data were processed

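The authors deposited 1 table of FPKM for 20036 Ensembl genes in 12 columns, each matched to a library by its label. Aligner, genome build, annotation, strand setting and kit: not given in the sources used here. Symbols were found for 20011 Ensembl IDs in a gene name table. GC content and length of transcripts are those of GENCODE release 29.

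FPKM were divided by a factor per library, the median ratio over the 10127 genes above 0 in all 6 libraries, with the 13 mitochondrially encoded genes left out (factors 0.780 to 0.794 for combination and 1.23 to 1.31 for HPA-12 libraries). Genes with at least 1 rescaled FPKM in 3 or more libraries were tested on log2(FPKM + 1) with limma 3.58.1 (trend and robust options, statmod 1.5.0, R 4.3.3) and Benjamini-Hochberg adjustment at 0.05. The added 1 understates the change of low genes. Crenolanib was compared with DMSO in the same way, on its own rescaling, and the interaction was fitted on all 12 libraries with a weight per group. Within a fit no library was dropped or imputed. The procedure was tested on simulated data.

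Depth was estimated from the steps between low FPKM with GENCODE release 29 gene lengths, at which 36.0% of low values fell within 0.01 of a whole read, so no count test was run and no counting interval is given.

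Named genes are the 15 most raised and 15 most lowered with a mean of at least 5 FPKM and groups that do not overlap, from each of 44 gene lists at most 5 that passed, by smallest p, all globin and mitochondrially encoded genes, 7 fixed genes, and the 5 most positive and 5 most negative interactions. A few named genes are not reported here. The compared groups and the gene lists were chosen with earlier results of these data known. Shares of members called are a description, to be read beside the share over all genes.

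Alternatives were another scaling or none, other added constants and filters, a replicate block, other limma options, each library left out in turn and, chosen after seeing the data, centring by GC content and testing only genes above 0 in all libraries. Figures were drawn with matplotlib 3.10.9, and values were prepared with Python 3.11.15, pandas 2.3.3, numpy 2.4.6 and scipy 1.17.1.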

Additional observations from a re-analysis of the deposited data

Results flagged for a closer look

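The response to crenolanib differed between cells with HPA-12 and cells without it, by the test of that difference over 12 libraries (limma, Benjamini-Hochberg over 11086 genes), for the genes below. Values are means ± SD over 3 libraries, and the difference is in log2 units, with HPA-12 minus without.

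The most positive differences reported here were that of MPO (5.55 ± 0.16, adjusted p = 2.4e-12), described above, and those of 3 further genes. SLC38A5, a transporter of glutamine and other small amino acids, had 27.5 ± 4.08 FPKM with the combination, 0.773 ± 0.108 with HPA-12, 5.21 ± 0.835 with crenolanib and 13.2 ± 1.07 with DMSO (5.19 ± 0.28, adjusted p = 2.8e-09). PYCR1, the last enzyme of proline synthesis in mitochondria, had 20.3 ± 7.41 FPKM with the combination, 1.82 ± 0.511 with HPA-12, 6.37 ± 1.13 with crenolanib and 25.9 ± 1.22 with DMSO (4.75 ± 0.37, adjusted p = 1.1e-07). DNPH1, a nucleotide hydrolase, had 33 ± 17.7 FPKM with the combination, 1.25 ± 0.243 with HPA-12, 10.3 ± 1.54 with crenolanib and 23.3 ± 3.11 with DMSO (4.87 ± 0.41, adjusted p = 3.7e-07). For SLC38A5, PYCR1 and DNPH1 the HPA-12 mean was the lowest of the 4.

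The most negative were those of CXCL8 (-5.30 ± 0.26, adjusted p = 1.2e-09) and CRLF2 (-5.16 ± 0.52, adjusted p = 1.6e-06), described above, and of 3 further genes. PDCD1, the immune checkpoint receptor PD-1, had 14.8 ± 0.378 FPKM with the combination, 12.8 ± 0.479 with HPA-12, 47.5 ± 1.54 with crenolanib and 0.252 ± 0.134 with DMSO (-5.08 ± 0.26, adjusted p = 1.8e-09). TMEM86A had 1.9 ± 1.81 FPKM with the combination, 21.7 ± 2.33 with HPA-12, 7.18 ± 1.3 with crenolanib and 1.8 ± 0.00683 with DMSO (-4.76 ± 0.39, adjusted p = 1.6e-07). IQCN had 6.09 ± 3.81 FPKM with the combination, 26.8 ± 1.77 with HPA-12, 23.2 ± 1.13 with crenolanib and 3.11 ± 0.0453 with DMSO (-4.67 ± 0.27, adjusted p = 4.1e-09).

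Of the 7 genes named whatever their values, 5 differed: HSPA5 (2.35 ± 0.17, adjusted p = 4.5e-08), XBP1 (2.02 ± 0.23, adjusted p = 3.0e-06), FLT3 (-1.15 ± 0.14, adjusted p = 5.1e-06), ATF6 (-0.74 ± 0.28, adjusted p = 0.037) and CERT1 (-0.74 ± 0.26, adjusted p = 0.026). DDIT3 and ATF4 did not pass, although ATF4 had -0.92 (adjusted p = 1.1e-05) on the deposited values and -0.34 (0.049) under upper-quartile scaling. The ATF6 difference no longer passed without combination library 1 or 3, HPA-12 library 2, or crenolanib library 1 or 3. It also did not pass with the replicate block (adjusted p = 0.0502), 1 shared spread (0.14), no filter (0.055) or GC centring (0.12). The CERT1 difference no longer passed without combination library 1 or 3, or with GC centring (0.082).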

How the results depend on the processing

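Combination against HPA-12 kept 5096 changed genes within 1.5 times under the other scalings, added constants, filters and limma options, but its split did not. On the deposited values 1288 genes rose and 5575 fell. With 1 library left out, 3326 to 5184 genes changed, 1732 to 2112 rose and 1590 to 3091 fell; the lowest counts of lowered genes, 1590 to 1713, were those without an HPA-12 library. With GC centring 2498 rose and 2172 fell, and over the 10140 genes above 0 in all libraries 2530 rose and 2505 fell. With a mean of at least 5 FPKM required, 5327 genes changed and 1928 rose in crenolanib against DMSO, of 6439 tested, and 2078 interactions were more negative, of 6204 tested. On the deposited values 1633 interactions were more positive and 5541 more negative. With 1 library left out, crenolanib against DMSO changed 7469 to 7543 genes (3014 to 3457 up, 4086 to 4472 down), and 4891 to 5875 interactions passed (2265 to 2755 more positive, 2605 to 3126 more negative).

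Signs reversed for ATF6 (0.10 without combination library 3, in a range of -0.67 to 0.10 with 1 library left out), for ATF4 (-0.24), CERT1 (-0.22), IL7R (-0.11), PSMB4 (-0.27) and B2M (-0.16) on the deposited values, and for the DDIT3 interaction (-0.039 on the deposited values and -0.000612 without combination library 2, in a range of -0.000612 to 0.98 with 1 library left out). The cause was not tested. Over all named genes and settings, 83 calls were lost and 8 signs reversed. A named gene that was not tested in a setting counts as neither. Without combination library 1, 2 and 3, 211, 210 and 208 of the 240 named genes kept their sign and call, and 2, 3 and 3 lost the call. Most of the others were not tested there, among them ARC, which had under 1 FPKM in every HPA-12 library. The mitochondrial share ran from 62.02% to 62.5% with the combination and from 21.4% to 21.9% with HPA-12 when 1 library was left out.

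With the replicate number as a block, 4766 genes changed (2152 up, 2614 down), against 5096 without it; 8080 changed in crenolanib against DMSO (3633 up, 4447 down) and 5894 interactions passed (2747 and 3147). Deviations of same-numbered combination and HPA-12 libraries correlated at 0.0146, 0.0400 and -0.0150. The combination libraries varied more than the HPA-12 libraries, which could hide a shared deviation. These values therefore cannot decide whether the numbers pair libraries. Of genes under 2 FPKM 35.6% passed, and their replicate SD with the combination was 0.449 log2 units at the median.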

Other observations

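Of the 918 list genes found in the table, 118 did not reach 1 FPKM in 3 of the 6 libraries and were not tested. Among them were genes of the groups that rose: ABCB6, a porphyrin transporter of the haem list, was at 0 in all combination libraries and between 0.0755 and 0.134 FPKM in the HPA-12 libraries. ICAM4, the Landsteiner-Wiener blood group protein, was at 0 in all 6 libraries. EGR2, a relative of EGR1, had 0, 0 and 0.301 FPKM with the combination, against 0.0353, 0 and 0.0824 FPKM with HPA-12. CEACAM8, a neutrophil surface protein, had 1.8, 0 and 0.765 FPKM with the combination, against 0.0514, 0.174 and 0.0479 FPKM with HPA-12. These genes were chosen after their values were seen.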
